A study of Arabidopsis thaliana with 4 samples.

Results

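The cytosolic 40S ribosomal protein genes described here are 53 *Arabidopsis thaliana* loci that encode RPSa and the proteins RPS2 to RPS19, RPS3a and RPS15a among them, of the small ribosomal subunit. They were chosen by locus name from the annotation of these protein families and stand among 32635 named rows of the authors' deposited table, of which 18696 had a test. All 53 had a row. In 50 the row held the locus alone, in 3 it was merged with neighbouring loci and is given apart, and 1 of the 50 (AT1G59359) was listed at 0 in both groups and was not tested, which left 49 tested members.

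Every library came from whole seedlings of the *daz3 tree1* double mutant in the Columbia background, which were 3 days old and had been kept in darkness. The air group received hydrocarbon-free air for 4 hours, and the ethylene group received that air with 10 ppm of the gaseous hormone ethylene for 4 hours. There were 2 libraries in each group, and the table gives 1 FPKM (fragments counted per transcript length and library size) per group, so no spread between libraries and no depth can be shown. The labels do not say whether the libraries came from separate seedling cultures, so the deposited p-values may measure technical spread. Wild type was not analysed here, so all comparisons describe the response of the mutant. Of the mutated genes, TREE1 (AT4G35610) was listed at 0 in air and 0.327 FPKM with ethylene and DAZ3 (AT4G35700) at 0 in both groups. Neither was tested, and a listed 0 can be a failed estimate. In whole seedlings, fewer cells of a type and less RNA per cell cannot be told apart.

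The ribosome is built from a large 60S and a small 40S subunit, and the 40S subunit binds the mRNA and reads its codons against tRNAs. Each 40S protein is present in a single copy in a ribosome, while Arabidopsis encodes nearly every one of them with several paralogous genes. In plants the promoters of these genes often carry telo boxes and site II elements, short motifs known from genes that are active in growing tissue, and the TOR kinase is a main regulator of ribosome production and translation.

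The stretches upstream of 2 paralogue pairs are shown because they set a strongly expressed gene beside a weak copy of the same family. The pairs were picked after their values were seen. They do not stand for all strongly expressed members, some of which hold neither a telo box nor a site II element, as given below. Each sequence is the 200 bases before the annotated start of the gene in RefSeq's TAIR10.1 genome, written 5′ to 3′ on the strand of the gene. Capitals mark a telo box (AAACCCTA) or a site II element (TGGGCC or TGGGCT) on either strand.
AT1G72370 (RPSa, chr1:27244932-27245131, minus strand): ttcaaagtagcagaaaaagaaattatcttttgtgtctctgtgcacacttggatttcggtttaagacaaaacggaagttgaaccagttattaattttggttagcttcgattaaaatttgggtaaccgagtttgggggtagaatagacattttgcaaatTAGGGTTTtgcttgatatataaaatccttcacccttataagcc
AT3G04770 (RPSa, chr3:1311130-1311329, minus strand): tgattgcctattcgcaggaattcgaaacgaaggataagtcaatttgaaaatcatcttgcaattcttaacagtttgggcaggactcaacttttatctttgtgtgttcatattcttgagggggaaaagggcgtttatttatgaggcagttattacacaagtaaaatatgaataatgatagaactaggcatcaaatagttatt
AT5G15200 (RPS9, chr5:4936430-4936629, minus strand): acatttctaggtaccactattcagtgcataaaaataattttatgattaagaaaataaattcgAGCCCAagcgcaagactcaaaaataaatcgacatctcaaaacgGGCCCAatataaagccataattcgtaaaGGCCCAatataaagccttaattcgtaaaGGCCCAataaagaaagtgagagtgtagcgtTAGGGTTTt
AT5G39850 (RPS9, chr5:15949710-15949909, plus strand): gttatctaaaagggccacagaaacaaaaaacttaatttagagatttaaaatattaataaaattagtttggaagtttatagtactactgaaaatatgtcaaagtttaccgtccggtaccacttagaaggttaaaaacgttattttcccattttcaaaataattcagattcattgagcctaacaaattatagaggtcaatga

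The strong RPS9 copy AT5G15200, at 542.8 FPKM in air, holds 4 site II elements and 1 telo box, and its paralogue AT5G39850, at 18.3 FPKM, holds neither motif. The strong RPSa copy AT1G72370, at 356.7 FPKM, holds 1 telo box, and AT3G04770, at 3.12 FPKM, holds neither.

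Over 250 bases upstream of each member, searched on both strands, 33 of 53 (62.3%) held a site II element against 19.2% of 27443 annotated promoters of the same length. A telo box was found in 9 of 53 (17.0%) against 4.49%, both motifs in 6 members and neither in 17. The other cytosolic 40S genes (72.1%), the 60S genes (70.5%) and the nuclear genes of the plastid 30S subunit (66.7%) held site II elements in shares of the same order, and no difference between these lists was tested. There were 72 site II matches in the members, with a median position of -56.5 from the gene start, and 70 of them lay within 140 bases. The 10 telo boxes had a median position of -24.5. A match is a run of letters and was not tested as a binding site.

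The motif content was compared with the level and with the change. Among single-locus members with at least 100 FPKM in air, 29 of 41 (70.7%) held a site II element, against 1 of 7 (14.3%) below 25 FPKM, and that 1 was AT1G59359, which was listed at 0. Neither motif was found in 10 of the 41 and in 5 of the 7. Among the 10 was the RPS16 gene AT5G18380, the highest of all members in air at 686.5 FPKM. The median log2 fold change was 0.17 for the 6 tested members with both motifs, 0.23 for the 3 with a telo box alone, 0.07 for the 24 with site II alone and 0.18 for the 16 with neither. These groups overlapped across nearly their whole range, from -0.44 to 0.49 in the set with neither motif and from -0.20 to 0.38 in the set with site II alone.

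**Figure D1:**
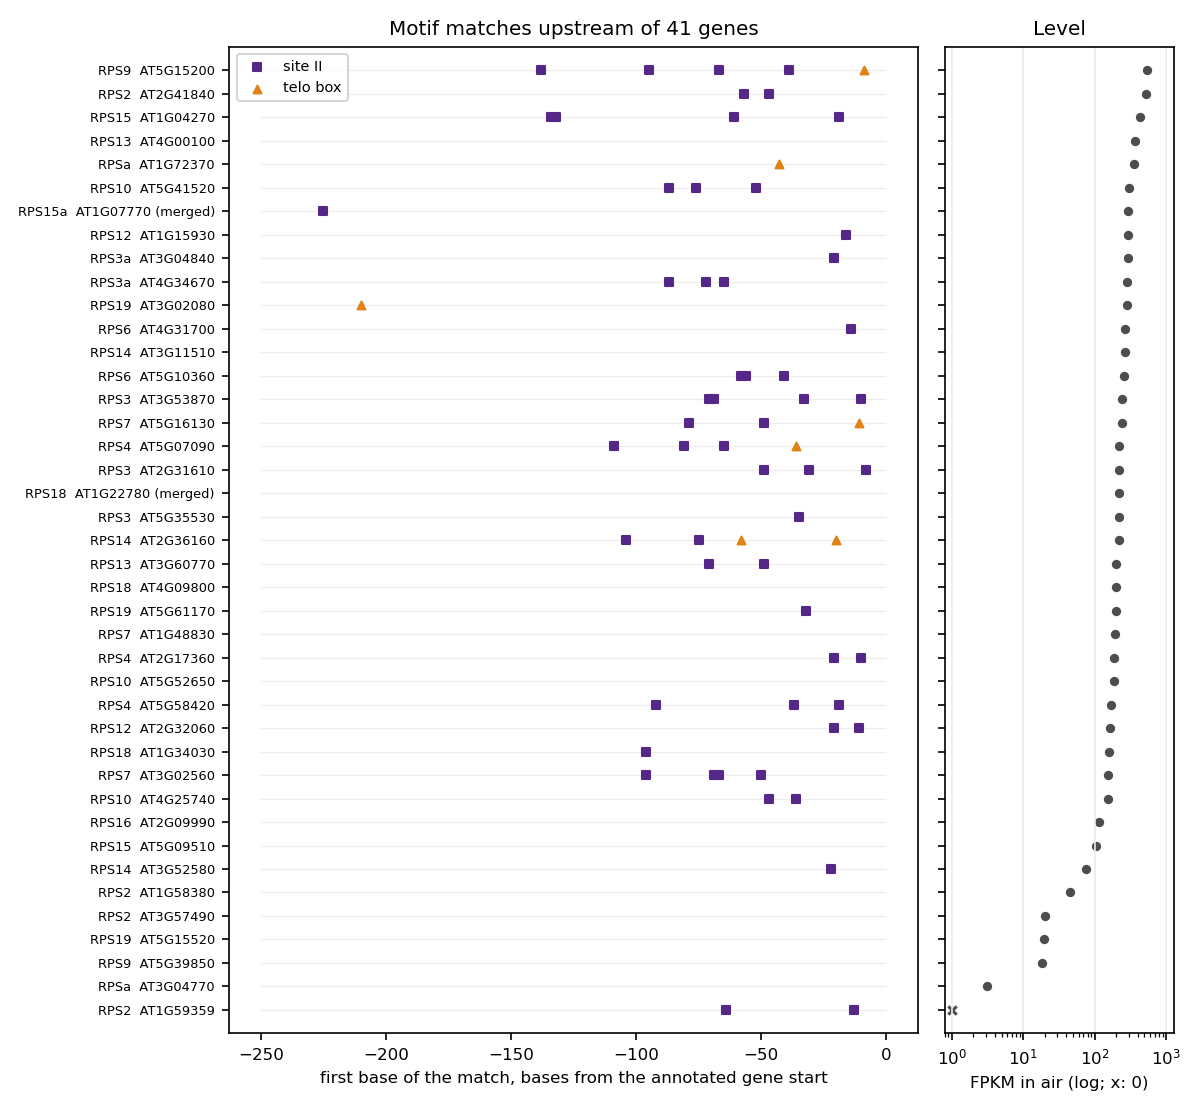
Left, the first base of each site II element (squares) and telo box (triangles) in the 250 bases before the annotated start of each of 41 genes, in bases from that start, ordered by level. Right, the level of the same gene in air as FPKM on a log axis, with a cross for a gene listed at 0. Most matches lie within 140 bases of the start, and most of the weakest genes at the foot have none.

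Most members were among the most abundant transcripts of the seedlings. The 50 single-locus members had a median of 198.2 FPKM in air and 210.7 FPKM with ethylene, and 41 of them stood in the top 10% and 35 in the top 5% of tested single-locus rows in air. There were 41 members at 100 FPKM or more in air, 2 between 25 and 100 FPKM, and 7 below 25 FPKM. Summed over the 50, the members reached 10863 FPKM in air and 12233 FPKM with ethylene, a 1.13-fold ratio, which was 1.22% and 1.33% of the sum of all named rows. The table is per transcript length, so levels can be set side by side between genes.

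**Figure D2:**
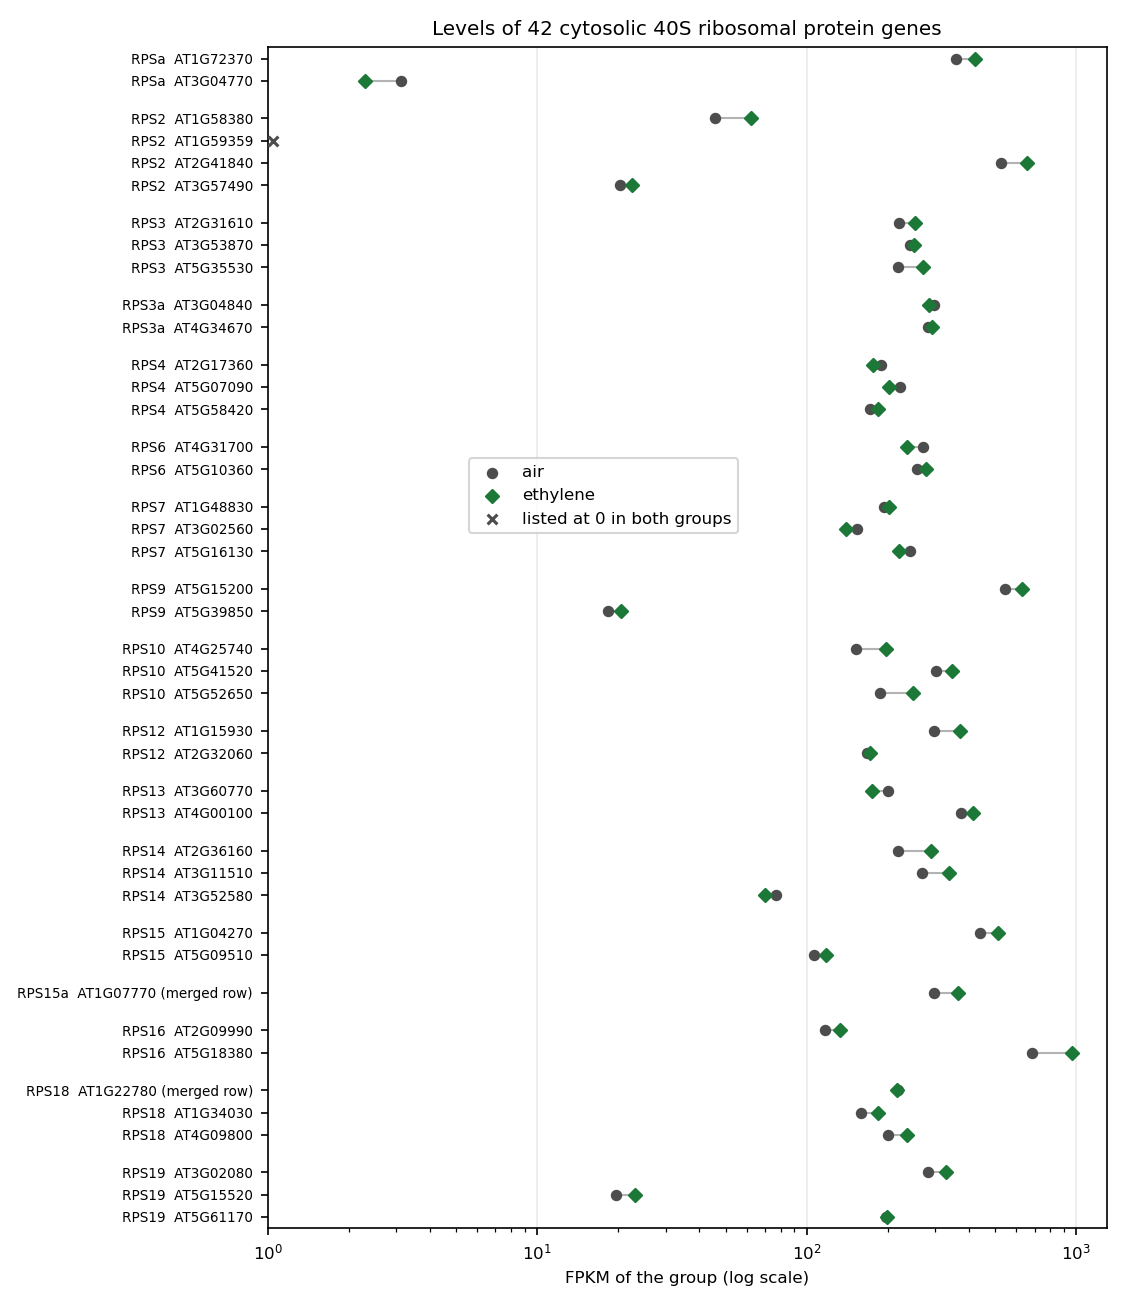
FPKM of each of 42 genes on a log axis, grouped by protein family, with circles for air and diamonds for ethylene, each point being the authors' single value for a group of 2 libraries. Most genes lie at 100 FPKM or more, and RPSa, RPS2, RPS9 and RPS19 hold a paralogue far below their highest one.

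After ethylene, 1 of 49 tested members rose and 0 fell at an adjusted p under 0.05, with the authors' p-values adjusted over all tested rows by the Benjamini-Hochberg method. Of all tested named rows 2.17% were called higher and 4.18% lower, so the members' share called higher was near that background and their share called lower was below it. Among rows with at least 100 FPKM, where most members lie, 8.47% were called higher and 8.16% lower, and both of the members' shares were below these. At an unadjusted p under 0.05 in the authors' deposited table, 9 members were higher and 0 lower, against 7.71% and 11.1% of tested single-locus rows and 21.2% and 14.5% of those with at least 100 FPKM. The ethylene value was the higher one in 36 of 49 members (73.5%), against 47.8% of tested single-locus rows and 59.7% of those with at least 100 FPKM. The members' median log2 fold change was 0.15, with quartiles at -0.02 and 0.24, beside -0.03 over all single-locus rows and 0.08 over rows with at least 100 FPKM.

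These directions depended on the scaling between the groups. In a list of 12 reference genes, among them ACT2, UBQ10 and PP2AA3, the median of the log2 fold changes was 0.23. They ran from -0.03 to 0.56, and 1 of them, EF1A (AT5G60390), was itself called higher on the deposited scale. With all values lowered by that median, the members' median became -0.084 and 13 of 49 had the higher value in ethylene. No member was then called higher and 2 (AT4G31700 and AT3G60770) were called lower. Over the whole table the calls went from 405 higher and 781 lower to 126 higher and 2437 lower, among 18696 tested rows. Every count under this scaling in the lists below stands beside that rise in lower calls. All folds given here are on the deposited scale, on which the log2 ratio of the 75th percentiles was -0.01 and the median log2 fold change of tested rows was -0.02.

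Most changes were of the size of their error, and the implied 95% interval held 0 in all but 9 members. The standard error implied by the deposited p was 0.15 on the log2 scale at the median member, 37 of 49 members lay within 0.25 of no change, and for 46 the 95% interval stayed within a 2-fold change in either direction. The other 3, AT3G04770 among them, were copies below 5 FPKM in air.

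**Figure D3:**
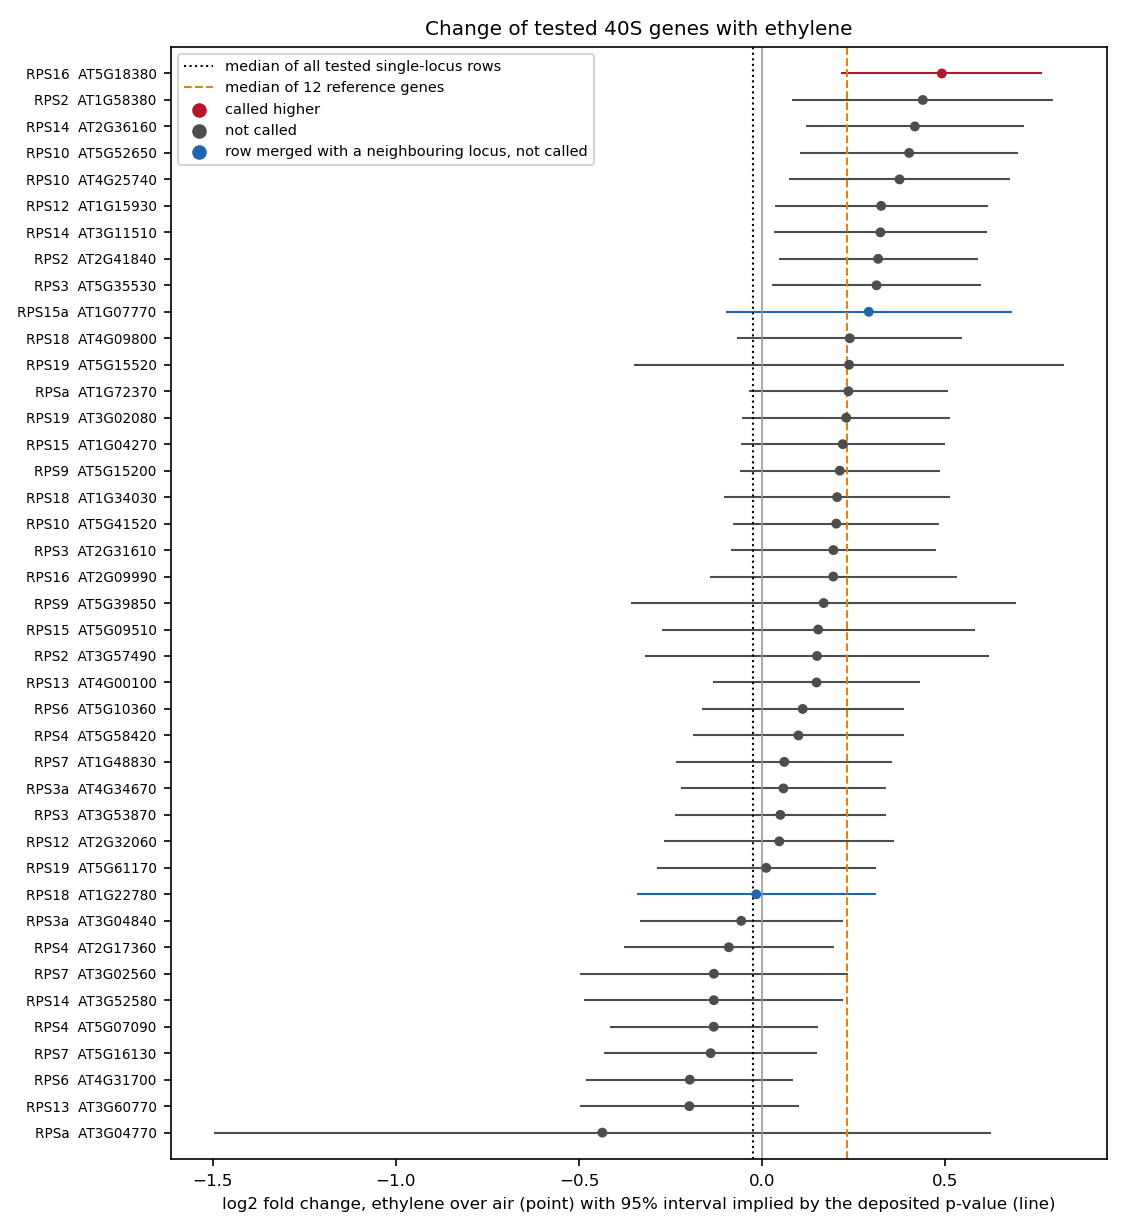
Log2 fold change of ethylene over air for 39 tested members and 2 merged rows, with the 95% interval implied by the deposited p as a line. Only AT5G18380 (red) was called on the deposited scale, and the orange dashed line at 0.23 marks the median of the 12 reference genes, to the left of which most members lie.

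Proteins around the path of the mRNA and the tRNAs are described first, with their places known from yeast and mammalian ribosomes. RPS16 reaches with its tail to the tRNA in the P site. Its gene AT5G18380 (a single exon on chromosome 5 in TAIR10.1) was at 686.5 FPKM in air and 964.4 FPKM with ethylene, a 1.40-fold rise. Its log2 fold change was 0.49 with an implied 95% interval from 0.22 to 0.76, and its adjusted p was 0.0125. It was no longer called with a trend of log2 fold change on expression level subtracted (log2 fold change 0.38, with an adjusted p of 0.0865). Its paralogue AT2G09990, the only other member without an intron, was at 116.6 and 133.4 FPKM and was not called. The 2 coding sequences are 98.2% identical, so the authors' counting may have split reads between them, and the change of AT2G09990 less that of AT5G18380 was -0.30 with an interval from -0.73 to 0.14. Their sum was 1.37-fold higher, the largest ratio of the 20 families with a single-locus row.

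RPS2, RPS3 and RPS9 line the channel through which the mRNA enters. The main RPS2 gene AT2G41840 was at 525.1 FPKM in air and 654.0 FPKM with ethylene. AT1G58380 (XW6) was at 45.8 and 62.1 FPKM, with a log2 fold change of 0.44 and an interval from 0.08 to 0.80. Both had an unadjusted p under 0.05 in the authors' deposited table and neither was called. AT3G57490 was at 20.3 and 22.5 FPKM. The RPS2 locus AT1G59359 was listed at 0, which can be a failed estimate, and its coding sequence is identical to those of AT1G58684 and AT1G58983 and 97.5% identical to that of AT1G58380.

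The 3 RPS3 genes were nearly level with each other in air. AT3G53870 was at 242.2 FPKM in air and 250.7 with ethylene, AT2G31610 at 219.8 and 251.6, and AT5G35530 at 218.2 and 271.0. The last had a log2 fold change of 0.31 and an unadjusted p under 0.05 in the authors' deposited table. RPS9 came almost wholly from AT5G15200, at 542.8 and 628.7 FPKM, while AT5G39850 was at 18.3 and 20.5 FPKM, and neither was called.

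RPS15 and RPS18 lie in the head of the subunit near the tRNAs. RPS15 (AT1G04270) was at 438.5 FPKM in air and 510.8 FPKM with ethylene, and its paralogue AT5G09510 at 106.2 and 118.1 FPKM. RPS18C (AT4G09800) was at 199.5 and 235.5 FPKM and AT1G34030 at 159.7 and 184.0 FPKM. The third RPS18 gene, PFL (AT1G22780), named after the pointed first leaves of its mutant, shares a row with AT1G22770 and AT1G22790, at 218.4 and 216.0 FPKM. No gene of these families was called, and all 4 in single-locus rows had the higher value in ethylene.

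RPSa, RPS3a and RPS14 belong to the platform side, where the mRNA leaves. RPSa rested on AT1G72370 (P40), at 356.7 FPKM in air and 420.0 FPKM with ethylene. Its paralogue AT3G04770 (RPSAb), at 3.12 and 2.30 FPKM, had the lowest log2 fold change of all members, -0.44, with an interval from -1.497 to 0.625. The RPS3a genes AT3G04840 (296.1 and 284.5 FPKM) and AT4G34670 (281.0 and 292.6 FPKM) summed to 577.1 FPKM in both groups.

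In the RPS14 family AT2G36160 was at 217.3 FPKM in air and 290.1 FPKM with ethylene. Its log2 fold change was 0.42 with an adjusted p of 0.0744. AT3G11510 was at 268.5 and 335.8 FPKM and AT3G52580 at 76.8 and 70.1 FPKM. The first 2 had an unadjusted p under 0.05 in the authors' deposited table and none was called. The change of AT2G36160 exceeded that of AT3G52580 by 0.55, with an interval from 0.09 to 1.01. Of 38 paralogue pairs with both genes tested this was the only one whose interval of the difference excluded 0, with no adjustment over the 38 pairs.

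RPS10 and RPS12 sit at the head and its beak. All 3 RPS10 genes had the higher value in ethylene. RPS10B (AT5G41520) was at 301.0 FPKM in air and 346.3 with ethylene, AT5G52650 at 187.2 and 247.2, and AT4G25740 at 151.9 and 197.1. AT5G52650 had a log2 fold change of 0.40 with an adjusted p of 0.0921, and AT4G25740 one of 0.38 with an adjusted p of 0.135. The RPS12 gene AT1G15930 was at 296.3 and 371.2 FPKM, with a log2 fold change of 0.32 and an unadjusted p under 0.05 in the authors' deposited table, and AT2G32060 was at 166.8 and 172.3 FPKM. None of these 5 genes was called.

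RPS6 is the classical target of the S6 kinase, which acts downstream of TOR. Its 2 genes stood close to each other and their values went in opposite directions. AT4G31700 (RPS6) was at 269.7 FPKM in air and 235.2 FPKM with ethylene, and AT5G10360 (EMB3010) at 255.9 and 276.3 FPKM. The difference between their log2 fold changes was -0.31 with an interval from -0.70 to 0.09, and neither was called on the deposited scale. AT4G31700 was called lower once scaled to the reference genes (-0.43, with an adjusted p of 0.0260).

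RPS4, RPS7 and RPS13 are proteins of the body of the subunit. The RPS4 genes AT5G07090 (221.8 FPKM in air and 202.3 with ethylene), AT2G17360 (188.0 and 176.5) and AT5G58420 (172.3 and 184.5) had log2 fold changes from -0.13 to 0.10. Those of the 3 RPS7 genes ran from -0.14 to 0.06. In that family AT5G16130 was at 241.6 FPKM in air and 219.1 FPKM with ethylene, AT1G48830 at 193.3 and 201.6 FPKM, and AT3G02560 at 153.3 and 139.9 FPKM. None of the 6 was called.

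RPS13A (AT4G00100) was at 372.2 FPKM in air and 412.5 FPKM with ethylene. The other RPS13 gene AT3G60770, at 200.8 and 174.9 FPKM, was not called on the deposited scale (log2 fold change -0.20) and was called lower once scaled to the reference genes (-0.43, with an adjusted p of 0.0375).

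RPS19 lies in the head, and RPS15a in the body. The RPS19 genes AT3G02080 (280.8 FPKM in air and 329.2 with ethylene), AT5G61170 (196.9 and 198.4 FPKM) and AT5G15520 (19.6 and 23.1 FPKM) all had the higher value in ethylene. RPS15A (AT1G07770) shares a row with AT1G07780, at 297.4 and 363.9 FPKM. Neither the RPS19 genes nor the merged row were called.

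Summed over paralogues, the families came much closer to each other than the single genes did. Of the 21 families, 20 had at least 1 single-locus row, and in air their sums ran from 359.2 FPKM (RPS18, without its merged gene) to 803.1 FPKM (RPS16), with a median of 561.8 FPKM. The highest sum was 2.24 times the lowest. Among the 18 families with every member in a single-locus row this ratio was 2.23 in air and 2.79 with ethylene. The sums hold members only, and further loci of RPS2, RPS15 and RPS16 lie outside them. Single genes of the same families spanned from 0 to 686.5 FPKM in air.

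The family sum was the higher one in ethylene in 17 of 20 families and the lower one in RPS4, RPS6 and RPS7. After scaling to the reference genes it was higher in 4 of 20. The ratio of sums was 1.25 for RPS2, 1.24 for RPS14 and 1.23 for RPS10 beside 1.37 for RPS16. In 10 families every tested single-locus member had the higher value in ethylene, in 10 the directions were mixed, and in 0 were all lower. These sums carry no test.

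The shares of the paralogues within a family do not depend on the scaling between groups. The share of the leading gene in its family changed by a median of 1.47 percentage points and by at most 5.33 points, in RPS6, where AT4G31700 held 51.3% in air and 46.0% with ethylene. In 3 families a single gene gave over 90% of the sum in air, among them RPSa with 99.1% and RPS9 with 96.7%. In 5 of the families with no member at 0 the leading member was at least 10-fold above the weakest one, among them RPSa (114.4-fold), RPS9 (29.7-fold) and RPS19 (14.3-fold). RPS2 also had a wide gap, between AT2G41840 and AT3G57490, besides its gene listed at 0.

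**Figure D4:**
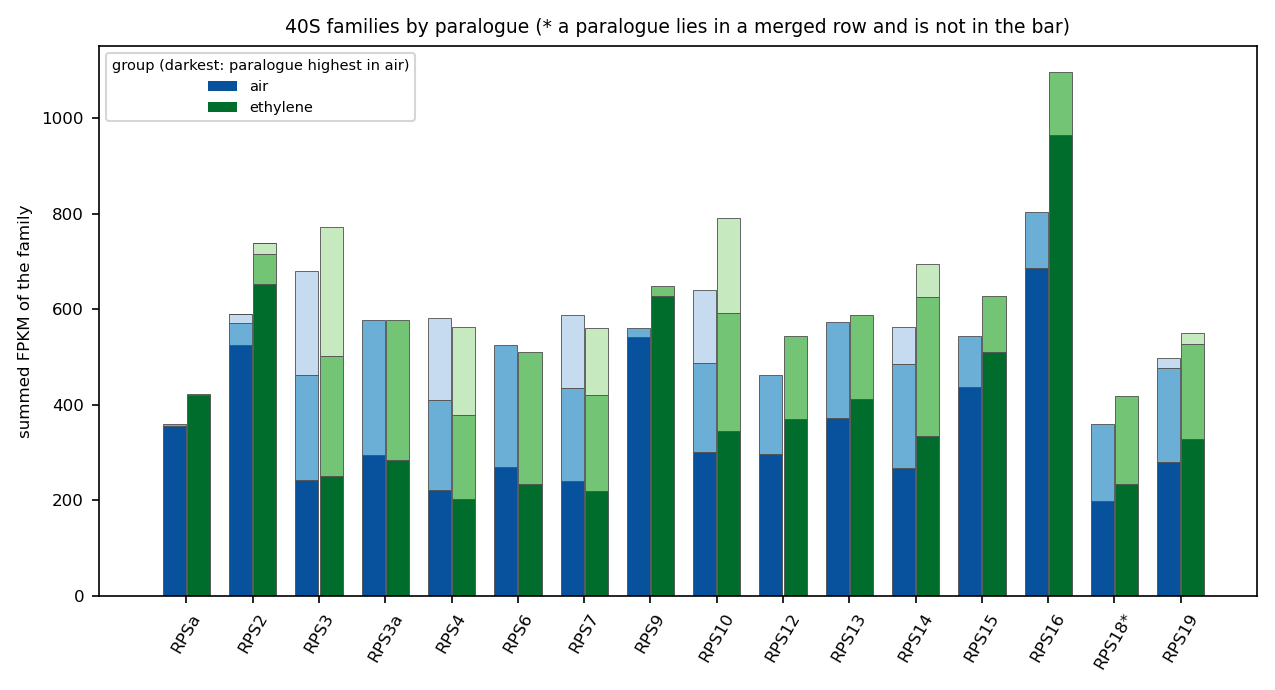
Summed FPKM of the single-locus members of each of 16 families in air (blue) and with ethylene (green), with 1 segment per paralogue and the darkest segment for the paralogue highest in air. The sums lie within 2.24-fold of each other in air, and RPS16 stands highest in both groups.

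The transcripts of the 53 genes are short and alike. Their median mRNA length was 1041 bases beside 1516.5 bases over all annotated genes, with a GC content of 42.3% beside 41.3% and 4 introns beside 3. They are spread over all 5 chromosomes, with 9, 9, 12, 6 and 17 members on chromosomes 1 to 5. Across the 49 tested members, Spearman's rho of the log2 fold change was 0.17 with GC content, -0.07 with mRNA length, -0.28 with the number of introns and 0.28 with FPKM in air. These are descriptions across genes that share the same 4 libraries. Coding sequences of 46 paralogue pairs were 68.2% to 98.2% identical with a median of 84.8%, and 5 pairs were at 95% or more.

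The remaining proteins of the cytosolic 40S subunit were compared from a list of 43 loci, mostly RPS20 to RPS30 and the scaffold protein RACK1. Of 36 tested, 0 were called in either direction, 4 were higher and 1 lower at an unadjusted p under 0.05 in the authors' deposited table, and 25 had the higher value in ethylene. Their median log2 fold change was 0.08. Scaled to the reference genes, or with the expression trend subtracted, 1 was called lower, and with the GC trend subtracted 1 was called higher. The most abundant were the RPS23 gene AT5G02960, at 560.0 FPKM in air and 648.8 FPKM with ethylene, and the ubiquitin fusion gene UBQ5 (AT3G62250), at 480.7 and 501.3 FPKM.

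The cytosolic 60S genes gave more calls. Of 113 tested, 2 rose and 9 fell, beside 2.17% and 4.18% of all tested named rows and 8.47% and 8.16% of those with at least 100 FPKM. Their median log2 fold change was -0.02. Both that rose encode acidic stalk proteins, AT5G47700 (RPP1, 360.2 to 512.4 FPKM) and AT5G57290 (RPP3, 324.1 to 459.6 FPKM). Those that fell most were AT1G80750 (RPL7 family, 26.4 to 12.6 FPKM), AT5G56710 (RPL31, 250.1 to 152.3 FPKM), AT4G29410 (RPL28, 142.8 to 91.1 FPKM) and AT3G23390 (RPL36a, 235.0 to 155.4 FPKM). Scaled to the reference genes, 0 were called higher and 28 lower, in a setting that raised the lower calls over the whole table, as given above. With the expression trend subtracted, 0 were called higher and 9 lower. With the GC trend subtracted, 3 were called higher and 5 lower, and AT1G80750 (adjusted p of 0.0524) and AT3G23390 (0.0609) were no longer called. The difference between the 40S and 60S lists was not tested. Of 9 nuclear genes for the plastid 30S subunit, 0 were called, 2 had the higher value in ethylene and the median was -0.19. Scaled to the reference genes 6 of the 9 were called lower, beside the same rise over the whole table. AT2G33800, among the most abundant and 1 of the 2 with the higher value, was at 465.4 and 478.0 FPKM.

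Genes that work with the 40S subunit in translation included 3 called higher of 16 tested factors and 0 called lower on the deposited scale. Of all tested named rows 2.17% and 4.18% were so called, and of rows with at least 100 FPKM 8.47% and 8.16%. Elongation factor 1A delivers tRNAs to the ribosome, and its genes AT1G07940 (113.0 to 159.2 FPKM) and AT5G60390 (952.6 to 1269 FPKM) rose. The merged row of its genes AT1G07920 and AT1G07930 was at 287.8 FPKM in air and 361.5 FPKM with ethylene and was not called. EIF4A1, the RNA helicase that opens mRNA leaders for scanning, rose from 243.2 to 330.6 FPKM. Subunits of eIF3, which binds the 40S subunit directly, were not called, and the largest of them by level, TIF3H1, was at 106.3 and 103.9 FPKM. Its log2 fold change was -0.03, beside -0.08 for TIF3B1, -0.25 for EIF3C and -0.38 for EIF3A. Of these, EIF3A alone had an unadjusted p under 0.05 in the authors' deposited table. The median of this list was 0.09. Scaled to the reference genes, which raised the lower calls over the whole table, 0 factors were called higher and 3 lower. The 3 genes that rose then had adjusted p-values from 0.234 to 0.425. AT5G60390 is itself 1 of these reference genes (EF1A). With EF1A left out of the scaling, the 3 had adjusted p-values from 0.198 to 0.371. With the expression trend subtracted AT1G07940 alone was called, and with the GC trend subtracted AT5G60390 was no longer called (adjusted p of 0.0516). Of 10 tested ribosome biogenesis genes 1 fell, the pseudouridine synthase gene NAP57 (21.1 to 13.8 FPKM), and their median was -0.27. NAP57 was no longer called with the expression trend (adjusted p of 0.0576) or the length trend (0.0524) subtracted, and scaled to the reference genes 3 genes of this list were called lower.

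The TOR pathway and regulators of ribosomal protein genes formed a list of 9. TOR itself rose from 8.76 to 15.2 FPKM (log2 fold change 0.79), and RAPTOR1 and RAPTOR2, which bring substrates to the kinase, rose from 21.8 to 30.1 and from 2.53 to 5.07 FPKM. Of the 9 genes, 3 were called higher and 0 lower on the deposited scale, beside 2.17% and 4.18% of all tested named rows. The value was higher with ethylene in 6 and lower in 3. Among the lower were LST8-1 (39.9 and 31.7 FPKM) and TAP46 (24.7 and 18.0 FPKM). TAP46 had an unadjusted p under 0.05 in the authors' deposited table. The S6 kinase genes were not called, with PK1 (AT3G08730) at 55.4 and 62.5 FPKM and S6K2 at 16.6 and 13.98 FPKM. TCP20, a factor known to bind site II elements, was at 7.69 and 8.66 FPKM. Scaled to the reference genes, TOR stayed called higher (0.56, with an adjusted p of 0.0353), and RAPTOR1 and RAPTOR2 were no longer called. TOR's deposited p was at the smallest value given, so the standard error behind this adjusted p may be too large. In the same setting 2 genes of the list were called lower, beside the rise in lower calls over the whole table. With the GC trend subtracted TOR alone was called, with adjusted p-values of 0.246 for RAPTOR1 and 0.0530 for RAPTOR2.

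**Figure D5:**
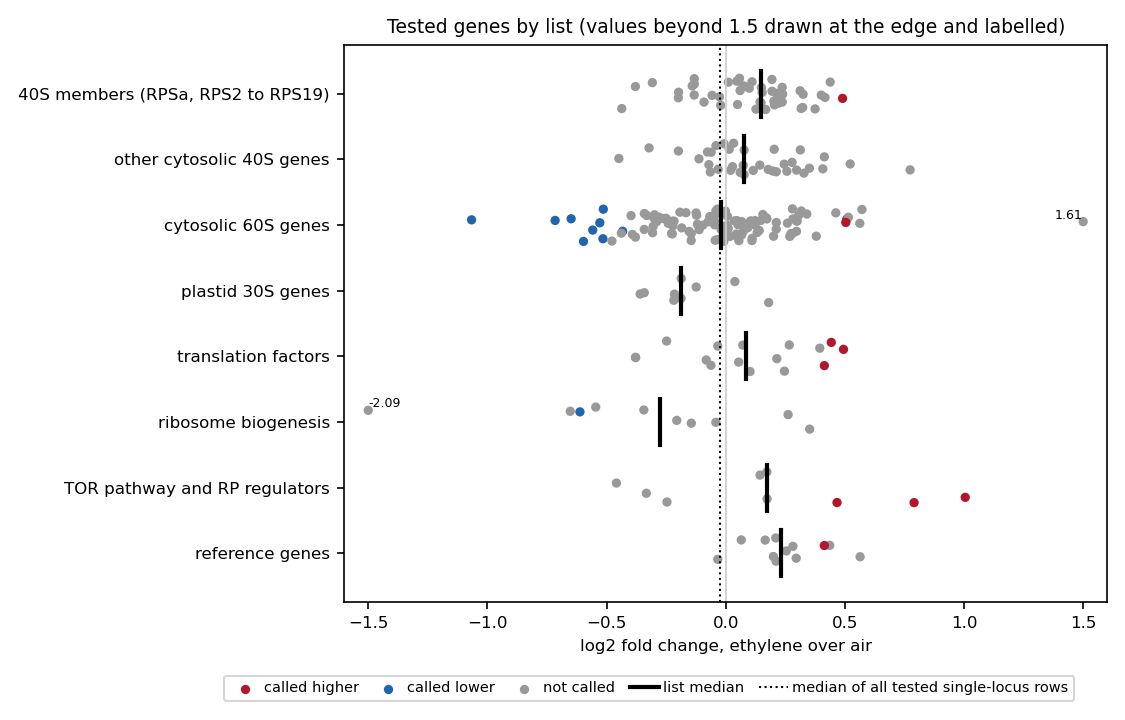
Log2 fold change of ethylene over air for each tested single-locus gene in 8 lists, with red for genes called higher, blue for called lower, a black bar at the median of each list and values beyond the axis drawn at its edge and labelled. The members have a median of 0.15 and the reference genes one of 0.23, both to the right of the dotted median of all rows at -0.03.

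Markers of tissues were read beside these results. The root markers PYK10 and CASP1 were at 4093 and 170.2 FPKM in air and at 3868 and 176.3 FPKM with ethylene, and COBL9 was near 0. Of 3 cotyledon and shoot markers PORA fell from 1873 to 1147 FPKM, while RBCS1A and CAB3 were not called. The 8 markers of dividing cells summed to 51.0 FPKM in air and 40.6 FPKM with ethylene, with PLT1 at or near 0. Of the 7 tested, 5 had the lower value in ethylene and 2 the higher one. These 2 were AT3G54180 (5.22 and 7.44 FPKM) and STM (5.14 and 6.80 FPKM), and neither was called. MCM2 was at 4.01 and 1.86 FPKM, and its adjusted p was 0.0467 on the deposited scale and from 0.0506 to 0.0943 with the values centred on the median, scaled to the 75th percentiles or a trend subtracted. Scaled to the reference genes with and without EF1A, it was called lower, with adjusted p-values of 0.00529 and 0.00678. The 3 pollen and anther markers stood at 0.105 FPKM or below. The part of these markers in the members' values was not tested.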

How the data were processed

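Gene expression was measured by RNA sequencing in 4 libraries of *daz3 tree1* seedlings, which fall by their labels into an air and an ethylene group of 2 each. Per the submitters' processing notes, the authors used TopHat2 2.0.9 and Cuffdiff 2.0.1 with the TAIR10 genome. How libraries were scaled, and how strand and reads that fit several genes were handled, is not given in the sources used, so overlapping or near-identical genes may share or split reads. Libraries were made with a NEB kit, per the labels' protocols.

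The deposited table holds 1 value per group, taken as the authors' FPKM because Cuffdiff is named, and an unadjusted p-value deposited per row, with a smallest value of 5e-05. Without values per library, depth is unknown and no SD is given. Log2 ratios were recomputed from the FPKM, because the deposited fold column held spreadsheet error text. Of 32878 rows, 243 have no gene name, held 86.0% (air) and 88.9% (ethylene) of the column sums, and stayed out. The planned q-values and test status gave way to Benjamini-Hochberg adjusted values, computed from the authors' p over the 18696 named rows whose p was under 1, and rows under 0.05 were called. Standard errors and 95% intervals were worked back from the p-value with a normal approximation and are not given for rows at the smallest p. For those rows the implied standard error can be too large. The p-values and counts under other scalings and trends still used it.

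The members and all lists were chosen with earlier results of these data known, so no list was tested. The text and the plots by gene name the members except those of 4 families, and 1 gene of another list and 1 upstream stretch are also not reported here. All 53 members enter the counts, sums and medians. In other lists up to 4 called genes by size of change or the 2 highest in FPKM are named. AT1G07920, AT1G07930, TIF3H1, TIF3B1, EIF3C, EIF3A, PK1, S6K2, LST8-1, TAP46, TCP20, ACT2, UBQ10, PP2AA3, AT3G54180 and STM were named in addition, after their values were seen. Coordinates, upstream stretches, coding sequences and names came from RefSeq's TAIR10.1 annotation, in which all 53 members were found. Motifs were searched in 250 bases upstream. Coding identity is over a global alignment. The calculation was tested on simulated data. Alternatives were other thresholds, filters, a pseudocount, scalings, trends and row choices. Work was done in Python 3.11.15 with Biopython 1.88, pandas 2.3.3, numpy 2.4.6, statsmodels 0.14.6, scipy 1.17.1 and matplotlib 3.10.9.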

Additional observations from a re-analysis of the deposited data

How the results depend on the processing

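On the deposited scale 1 member was called higher and 0 lower. The count called higher was 0 at an adjusted p of 0.01, 3 at 0.10 (with AT2G36160 and AT5G52650), and 0 with the expression trend subtracted. Scaled to the 12 reference genes it was 0, with 2 called lower, and scaled to the 11 without EF1A it was 0, with 1 called lower (AT4G31700). Under these 2 scalings the members' median log2 fold change was -0.084 and -0.063, the members higher in ethylene were 13 and 17 of 49, and the log2 ratio of the summed FPKM was -0.061 and -0.040. Over the whole table the 405 higher and 781 lower calls became 126 and 2437, and 151 and 2212, under these scalings, and 406 and 611 with the GC trend subtracted. Which scaling holds was not tested. The other alternatives, namely a filter at 5 FPKM, a pseudocount of 1 FPKM, centring on the median, scaling to the 75th percentiles, GC and length trends, merged rows, single-locus adjustment and rows with a p of 1, left the count of called members at 1 higher and 0 lower where they were run on it. No paired analysis was possible because the table holds 1 value per group. For the same reason leaving out each library and limma per library were not run. Depth and the spread between libraries remain unknown, and the intervals measure what the authors' test measured.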

Other observations

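Several loci that resemble members, but are not among the 53, were read beside them. The RPS2 loci AT1G58684 and AT1G58983, whose coding sequences are identical to that of AT1G59359, were at 0.118 and 1.78 FPKM in air and at 0.0938 and 3.04 FPKM with ethylene, and neither was called. The RPS15 loci AT5G09490, AT5G43640 and AT5G63070 and the RPS15a locus AT2G39590 were listed at 0 in both groups, and AT5G09500 was at 0.516 FPKM in air and listed at 0 with ethylene. The RPS16 locus AT3G04230 was at 17.7 FPKM in air and 20.4 FPKM with ethylene, and the RPS15a genes AT5G59850 and AT3G46040 were at 118.2 and 88.9 FPKM in air and at 156.8 and 93.5 FPKM with ethylene, none of them called. In the RPS23 family the listed values lay almost wholly on 1 gene, with AT3G09680 at 0.198 FPKM beside AT5G02960 at 560.0 FPKM in air. AT3G09680 was not tested, and how reads were split between these genes is not known.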
